A study of Mus musculus with 21 samples.

Results

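A set of 9 genes had been picked for a lower signal in Dot1l-deleted granulocyte-macrophage progenitors than in control progenitors, and they are described here over all 4 groups of arrays in the study. They are Eml2, Zfand2b, Wrap53, Chchd5, Mogat2, Use1, Vamp5, Npc2 and Emc8, 9 of the 18194 genes measured. All 19 probe sets annotated to these genes alone were read. A gene stands for its brightest probe set, by mean log2 over the 21 arrays, and the other 10 probe sets are given beside it. The genes were called lost when they were picked, and the values show lower signal: Npc2 in deleted progenitors still had 49.7% of the control signal, and Eml2 had 11.7%. The table used here carries no detection calls, so no value can be read as an absent transcript.

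Dot1l encodes the histone methyltransferase that places methyl groups on lysine 79 of histone H3 within the bodies of transcribed genes. Granulocyte-macrophage progenitors (GMP) are committed bone marrow cells that give rise to neutrophils and monocytes. They descend from the LSK compartment, cells without lineage markers that carry Sca-1 and Kit, which holds the stem cells and multipotent progenitors. The 9 genes do not belong to a common pathway. Use1, Vamp5 and Emc8 act in membrane traffic or in the endoplasmic reticulum, Zfand2b in protein quality control, Npc2 and Mogat2 in lipid handling, Wrap53 in telomerase and Cajal body assembly, Chchd5 in mitochondria and Eml2 at microtubules.

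RNA from sorted mouse bone marrow cells was hybridised to Affymetrix expression arrays. The GMP-Dot group (4 arrays) and the LSK-Dot group (6 arrays) came from Dot1l fl/fl x Mx-Cre mice, in which both Dot1l alleles were deleted by pIpC. In the GMP-Control group (5 arrays) and the LSK-Control group (6 arrays) the genotype was Dot1 wt/wt x Mx-Cre. Every group therefore carried the Mx-Cre transgene and received pIpC, an interferon inducer that switches on the Mx promoter, and every group has the C57/BL6 background in the labels. Mx-Cre acts in many interferon-responsive cells besides blood progenitors. The labels used here state neither age nor time after injection. They also do not tie arrays to separate animals, so the spread behind each p-value may be partly technical, and precision is set by how many arrays there are.

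The targeted gene did not separate the genotypes. Of 2 Dot1l probe sets, 1457268_at lay at 5.62 to 6.60 in GMP-Dot and 6.55 to 6.95 in GMP-Control on the log2 scale, and the other overlapped more widely. Whether either lies in the deleted part is not known here. The mean of 7 GMP marker genes was 11.01 to 11.78 in GMP-Dot, 11.39 to 12.20 in GMP-Control, 8.82 to 10.83 in LSK-Dot and 8.69 to 10.02 in LSK-Control, so every GMP array was above every LSK array. The LSK-Dot array K1272 stood apart, with a median Spearman correlation of 0.647 with its own group and the highest LSK-Dot value for 7 of the 9 genes. The GMP-Dot arrays K1190 and K1272 were unusually close to each other, with a Spearman correlation of 0.988. Over all genes the median log2 fold change was -0.20 in GMP and 0.06 in LSK, deleted over control.

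Of the 9 genes, 7 had a promoter entry in RefSeq (GRCm38.p6), running from 250 bases before to 50 bases after an annotated start, with 11 entries in all. Of these, 3 entries are shown because these genes frame the description that follows: Eml2 had the largest difference in GMP, Chchd5 had deleted GMP arrays that overlapped LSK, and Npc2 had the largest number of probe sets. They lie at chr7:19176171-19176470 on the plus strand (Eml2), chr2:129129450-129129749 on the plus strand (Chchd5) and chr12:84773063-84773362 on the minus strand (Npc2). Capitals mark matches on either strand to the ETS core written CCGGAA, the GC box written GGGCGG, the box known by its letters CCAAT, or the TATA box written TATAAA, and overlapping matches were each counted.
Eml2: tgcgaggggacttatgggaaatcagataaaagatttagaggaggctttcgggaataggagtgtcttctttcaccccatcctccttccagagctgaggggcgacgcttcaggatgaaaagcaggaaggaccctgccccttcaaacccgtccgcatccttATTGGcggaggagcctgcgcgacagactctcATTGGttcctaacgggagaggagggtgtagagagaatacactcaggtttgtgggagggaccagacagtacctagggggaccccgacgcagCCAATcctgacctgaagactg
Chchd5: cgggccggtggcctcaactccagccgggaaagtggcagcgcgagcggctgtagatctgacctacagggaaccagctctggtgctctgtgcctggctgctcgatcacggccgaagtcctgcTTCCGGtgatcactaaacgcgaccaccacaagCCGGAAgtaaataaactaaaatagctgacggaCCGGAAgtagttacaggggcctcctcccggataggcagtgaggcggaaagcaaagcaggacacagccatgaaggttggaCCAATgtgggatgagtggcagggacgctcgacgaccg
Npc2: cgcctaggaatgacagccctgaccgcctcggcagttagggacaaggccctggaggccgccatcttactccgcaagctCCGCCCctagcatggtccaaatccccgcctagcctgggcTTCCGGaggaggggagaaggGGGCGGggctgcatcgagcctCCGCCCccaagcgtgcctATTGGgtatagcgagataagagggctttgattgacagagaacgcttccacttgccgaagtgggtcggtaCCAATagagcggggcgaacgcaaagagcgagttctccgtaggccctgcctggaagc
The Chchd5 entry holds 3 ETS cores and 1 CCAAT box, the Npc2 entry 1 ETS core, 3 GC boxes and 2 CCAAT boxes, and the Eml2 entry shown 3 CCAAT boxes. Eml2 has a second entry, not shown, with 1 ETS core, 2 GC boxes and no CCAAT box. Across the 11 entries, 3 held an ETS core, against 14.9% of all 32851 promoter entries. A GC box was in 6 of the 11 and in 35.7% of all entries, a CCAAT box in 6 of the 11 and in 37.4%, and a TATA box in 1 of the 11 and in 13.6%. The 11 entries come from 7 genes and are not separate units, since those of Zfand2b overlap and share a GC box. All counts are matches of letters in a short window and were not tied to the expression values.

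In GMP, all 9 genes had every GMP-Dot array below every GMP-Control array, a pattern seen in 2.97% of all genes. The genes were picked on this comparison, so nothing is read from that count and no p is given for it. In the same comparison 0.143% of all genes passed an adjusted p of 0.05 by limma, and 0.0605% passed it with lower signal. Of the 9 genes, 8 were among those 11 lower calls, and Emc8 was not. Since the genes were picked on this comparison, nothing is read from this count either. The other lower calls were Prg2 (-3.20), an eosinophil granule protein, Tmem178 (-2.76) and Fdps (-2.12), an enzyme of isoprenoid synthesis. Without the LSK-Dot array K1272, 390 genes passed in place of 26. The median log2 fold change of the 9 genes was -1.55. In bulk RNA, fewer cells of a type and less RNA per cell cannot be told apart.

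**Figure D1:**
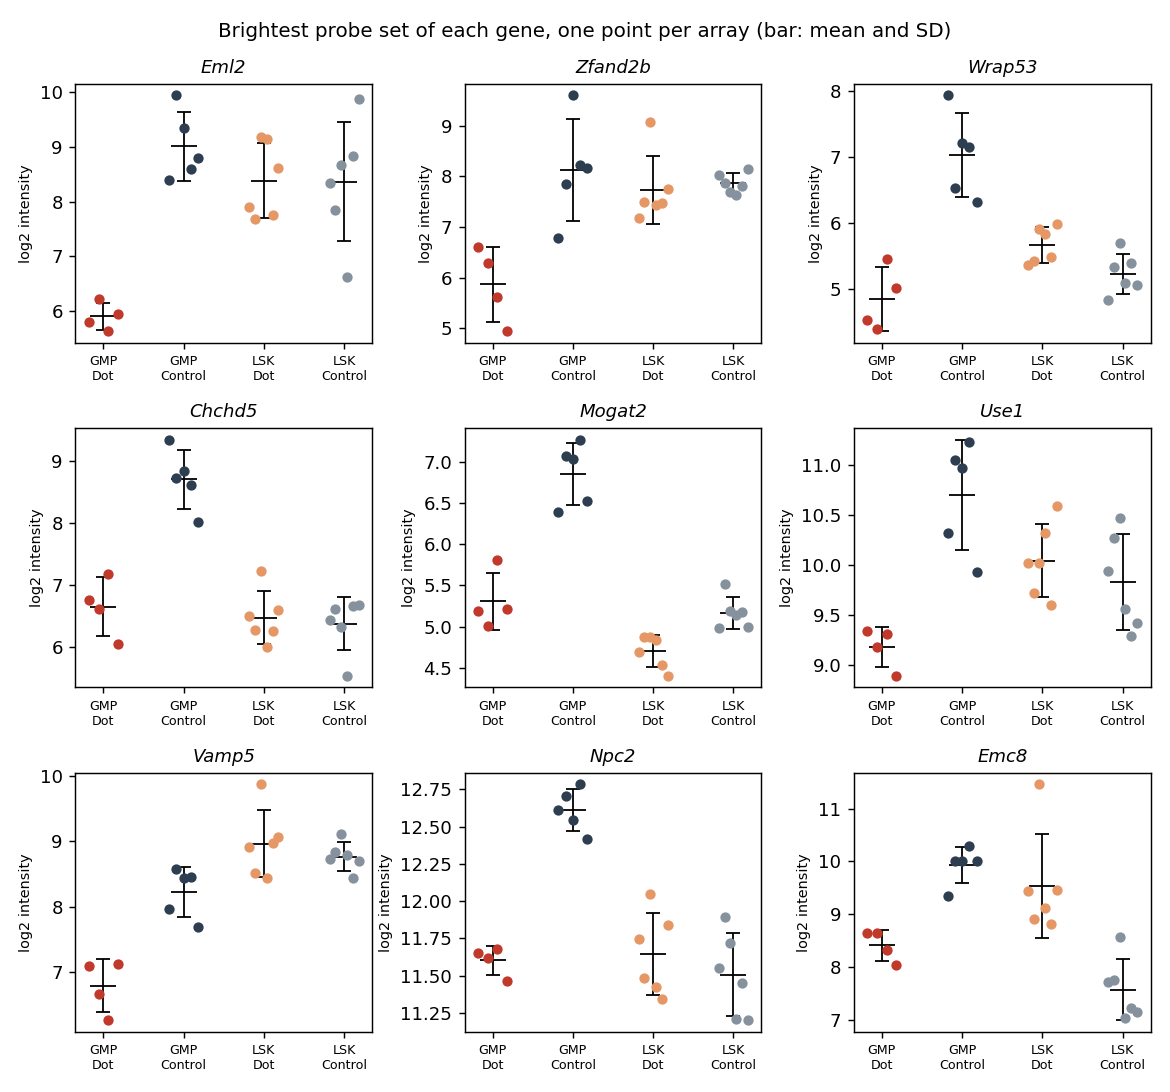
Log2 intensity (y axis) of the brightest probe set of each of the 9 genes on every array, by group (x axis), with bars for mean and SD (n = 4 GMP-Dot, 5 GMP-Control, 6 LSK-Dot, 6 LSK-Control). Every GMP-Dot point lies below every GMP-Control point of the same gene, and Emc8 alone has every LSK-Dot point above every LSK-Control point.

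Eml2, which encodes a microtubule-binding protein of the EMAP-like family, had the largest difference of the 9. Its log2 intensity on probe set 1428173_at was 5.81, 6.23, 5.64 and 5.95 in the GMP-Dot arrays, against 8.38, 9.93, 9.33, 8.59 and 8.79 in the GMP-Control arrays. The groups were 2.15 apart at their nearest arrays, and the log2 fold change was -3.10 ± 0.49 (SE). In LSK the lowest, median and highest values were 7.69, 8.26 and 9.17 in LSK-Dot and 6.62, 8.50 and 9.86 in LSK-Control. All 4 GMP-Dot values were thus below every other array in the study, while the other 3 groups overlapped.

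Zfand2b, also called Airapl, encodes a zinc finger protein associated with the proteasome and the p97 ATPase. Its values on 1451390_s_at were 6.60, 6.30, 5.62 and 4.95 in GMP-Dot, against 6.78, 7.84, 9.59, 8.22 and 8.16 in GMP-Control, a log2 fold change of -2.25 ± 0.45 (SE). Both GMP groups were widely spread, and their nearest arrays were only 0.18 apart, the narrowest gap of the 9 genes. In LSK the lowest, median and highest values were 7.18, 7.48 and 9.06 in LSK-Dot and 7.63, 7.84 and 8.14 in LSK-Control. The LSK-Dot maximum was the array K1272, and every LSK array exceeded every GMP-Dot array.

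Wrap53 encodes TCAB1, which brings telomerase and small Cajal body RNAs to Cajal bodies. Its values on 1456724_x_at were 4.53, 4.40, 5.45 and 5.02 in GMP-Dot, against 7.94, 6.54, 7.21, 7.15 and 6.32 in GMP-Control. The log2 fold change was -2.18 ± 0.30 (SE), with 0.87 between the nearest arrays. In LSK the lowest, median and highest values were 5.37, 5.67 and 5.99 in LSK-Dot and 4.84, 5.21 and 5.70 in LSK-Control. GMP-Control thus stood above every other array for Wrap53, and GMP-Dot overlapped LSK-Control.

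Chchd5 encodes a small mitochondrial protein with paired cysteine motifs. Its values on 1451505_at were 6.77, 6.62, 7.18 and 6.04 in GMP-Dot, against 9.34, 8.72, 8.84, 8.61 and 8.01 in GMP-Control, a log2 fold change of -2.05 ± 0.31 (SE). The LSK values were 6.003, 6.38 and 7.22 (lowest, median and highest) in LSK-Dot and 5.54, 6.52 and 6.68 in LSK-Control. The control GMP were the only group set apart, and the other 3 groups overlapped. GMP-Dot minus LSK-Dot was 0.17 ± 0.30 (SE), whereas GMP-Control minus LSK-Control was 2.33 ± 0.28.

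Mogat2 encodes a monoacylglycerol acyltransferase, best known from fat absorption in the intestine. Its values on 1455099_at, its single probe set, were 5.19, 5.01, 5.81 and 5.22 in GMP-Dot, against 6.39, 7.06, 7.03, 7.27 and 6.52 in GMP-Control. The log2 fold change was -1.55 ± 0.22 (SE). In LSK-Dot the lowest, median and highest values were 4.41, 4.77 and 4.88, and in LSK-Control they were 4.98, 5.16 and 5.52. Mogat2 was the one gene whose deleted arrays lay wholly below the control arrays in both cell types, though by only 0.10 at the nearest arrays in LSK. The LSK signal was low, with group means at percentiles 35.8 (LSK-Dot) and 45.3 (LSK-Control) of all genes. GMP-Control exceeded every other array, and GMP-Dot overlapped LSK-Control.

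Npc2 encodes the soluble lysosomal protein that hands cholesterol to the membrane protein Npc1. Its values on 1448513_a_at were 11.65, 11.62, 11.68 and 11.46 in GMP-Dot, against 12.61, 12.70, 12.55, 12.78 and 12.41 in GMP-Control. The log2 fold change of -1.01 ± 0.19 (SE) was the smallest of the 9, and both groups were tight, with SDs of 0.10 and 0.14. The LSK values were 11.34, 11.61 and 12.05 (lowest, median and highest) in LSK-Dot and 11.20, 11.50 and 11.90 in LSK-Control. As for Chchd5, deleted GMP lay within the range of the LSK arrays, and control GMP lay above it. For Chchd5 this rests on the LSK-Dot array K1272 (7.22), without which the GMP-Dot values 6.77 and 7.18 exceed every LSK array.

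Use1 encodes a SNARE protein of the endoplasmic reticulum that receives vesicles returning from the Golgi. Its values on 1423817_s_at were 9.34, 9.18, 9.31 and 8.90 in GMP-Dot, against 10.32, 11.05, 10.96, 11.23 and 9.93 in GMP-Control. The log2 fold change was -1.52 ± 0.30 (SE). In LSK the lowest, median and highest values were 9.60, 10.02 and 10.59 in LSK-Dot and 9.29, 9.75 and 10.47 in LSK-Control. GMP-Dot was the lowest group and fell below every LSK-Dot array, but it overlapped the bottom of LSK-Control.

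Vamp5 encodes an R-SNARE known mainly from muscle. Its values on 1430522_a_at were 7.10, 6.67, 6.27 and 7.12 in GMP-Dot, against 7.97, 8.58, 8.43, 8.45 and 7.68 in GMP-Control, a log2 fold change of -1.43 ± 0.28 (SE). The lowest, median and highest values were 8.43, 8.94 and 9.86 in LSK-Dot and 8.44, 8.76 and 9.10 in LSK-Control. Vamp5 was the only one of the 9 with a lower mean in control GMP than in control LSK, a difference of -0.54 ± 0.25 (SE) with overlapping arrays. Deleted GMP lay below every array of the other 3 groups.

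Emc8 encodes a subunit of the ER membrane protein complex, which inserts membrane proteins into the endoplasmic reticulum. Its values on 1448677_at were 8.63, 8.63, 8.32 and 8.03 in GMP-Dot, against 9.34, 9.996, 10.01, 10.29 and 10.01 in GMP-Control, a log2 fold change of -1.52 ± 0.42 (SE). In LSK the direction was the other way: the lowest, median and highest values were 8.81, 9.28 and 11.46 in LSK-Dot and 7.03, 7.46 and 8.57 in LSK-Control. The LSK log2 fold change was 1.96 ± 0.37 (SE), and 1.58 without the array K1272, which held the maximum. The opposite directions had been seen before Emc8 was included, so they are a description with no test. They hold on 1448677_at only. On the second probe set, 1434952_at, Emc8 was higher in deleted arrays in both cell types, at 1.31 ± 0.53 in GMP and 0.64 ± 0.45 (SE) in LSK, with overlap. On 1448677_at the order of the group means was GMP-Control, LSK-Dot, GMP-Dot and LSK-Control, with no overlap between LSK-Dot and GMP-Dot.

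The LSK group means share no array with the GMP comparison that chose the genes. The spread of each gene came from all 21 arrays, so the LSK errors, intervals and p-values draw on those GMP arrays too. Earlier results of the LSK comparison were also known, and Emc8 was chosen partly for its LSK values. None of the 8 genes other than Emc8 passed the test there (limma, Benjamini-Hochberg over all 18194 genes), and 0% of all genes did. Over all genes 1021 (5.61%) had an unadjusted p under 0.05 in LSK. Mogat2 was the only one of the 8 under that value. Its log2 fold change was -0.46 ± 0.19 (SE, 95% interval -0.85 to -0.07), its unadjusted p by limma was 0.0230 and its adjusted p was 0.788. Mogat2 lay in the 0.143% of genes whose LSK-Dot arrays were all below LSK-Control, and Emc8 in the 0.187% whose LSK-Dot arrays were all above.

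The other 7 genes had LSK log2 fold changes between -0.13 and 0.43, with intervals that differ in width. Wrap53 had 0.43 ± 0.26 (SE, 95% interval -0.10 to 0.97, limma adjusted p = 0.985) and Npc2 had 0.14 ± 0.17 (interval -0.21 to 0.49, limma adjusted p = 0.985). Use1 (0.22 ± 0.26), Vamp5 (0.20 ± 0.24) and Chchd5 (0.10 ± 0.26) had limma adjusted p-values between 0.985 and 0.986. Eml2 had 0.02 ± 0.42 (interval -0.86 to 0.91, limma adjusted p = 0.997) and Zfand2b had -0.13 ± 0.39 (interval -0.94 to 0.67, limma adjusted p = 0.988), the widest intervals of the 8. Without Emc8, 2 genes were lower and 6 higher in LSK-Dot, with a median of 0.12, while 41.6% of all genes were lower and their median was 0.06. Without the LSK-Dot array K1272, Eml2 and Chchd5 changed sign in LSK, to -0.13 and -0.05, Zfand2b had -0.40 and Vamp5 had 0.02. Without the LSK-Control array K1604 Eml2 (-0.32) and Chchd5 (-0.07) also changed sign, and without LSK-Control K1602 Eml2 did (-0.08). The split into 2 lower and 6 higher genes thus depends on single arrays.

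**Figure D2:**
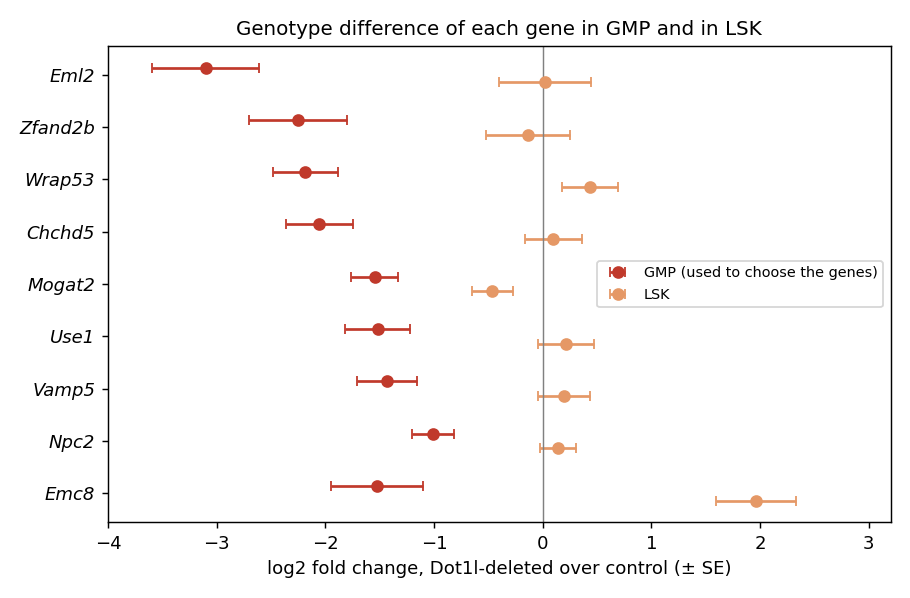
Log2 fold change (x axis), deleted over control, of each gene (y axis) in GMP and in LSK, with bars for the standard error of the limma fit (4 against 5 arrays in GMP, 6 against 6 in LSK). The GMP values, which were used to choose the genes, lie between -3.10 and -1.01, and the LSK values other than that of Emc8 lie between -0.46 and 0.43.

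The size of the GMP fold change depended on which probe set of a gene was read. Eml2 and Mogat2 have a single probe set, and the other 7 genes have 10 further ones. In GMP, 7 of the 10 were lower and 3 higher in the deleted arrays, and 2 of the 10 separated the groups without overlap. Over all genes, each by its brightest probe set, 65.7% were lower, and 2.97% lay wholly below. The 2 were Use1 1451130_at, at 7.87, 8.43, 7.43 and 6.92 in GMP-Dot against 9.16, 10.18, 10.46, 10.57 and 9.26 in GMP-Control, and Npc2 1416901_at, at 10.67, 10.76, 10.67 and 10.01 in GMP-Dot against 11.58, 12.07, 12.15, 12.03 and 11.39 in GMP-Control. For Use1 and Npc2 a second probe set therefore carried the same separation, with log2 fold changes of -2.26 ± 0.54 and -1.32 ± 0.31 (SE), both larger than on the brightest probe set.

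For Zfand2b, Chchd5, Vamp5 and Emc8 the GMP groups overlapped on the second probe set. Zfand2b 1424521_at lay at 6.94 to 7.83 in GMP-Dot and 6.54 to 8.02 in GMP-Control, a log2 fold change of -0.08 ± 0.37 (SE). Chchd5 1424851_at had 0.45 ± 0.58 and Vamp5 1449993_at had 0.07 ± 0.53, each with overlapping groups. Emc8 1434952_at ran the other way, at 1.31 ± 0.53, with the GMP-Dot array K1421 at 9.20 and the other GMP-Dot arrays at 5.42 to 6.14, against 4.94 to 6.24 in GMP-Control. For these 4 genes the lower signal in deleted GMP thus rests on 1 probe set each, and what part of the transcripts each probe set reads was not tested.

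Wrap53 1423808_at was lower by the means but not separated, at 3.66 to 4.40 in GMP-Dot and 3.29 to 6.95 in GMP-Control, a log2 fold change of -1.19 ± 0.62 (SE). Its GMP-Control arrays split into values of 6.81 and 6.95 and values of 3.29, 3.76 and 4.91. The third Use1 probe set (-0.52 ± 0.51) and the remaining Npc2 probe sets (-0.33 ± 0.77 and -0.23 ± 0.17) overlapped between the groups. In LSK the second Emc8 probe set was higher in deleted arrays, at 0.64 ± 0.45 with overlap, and Use1 1451130_at had 1.03 ± 0.46 with overlap. Among the main probe sets, those of Zfand2b, Wrap53, Use1, Vamp5 and Npc2 carry the suffixes by which Affymetrix marks sets that can read more than 1 transcript.

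**Figure D3:**
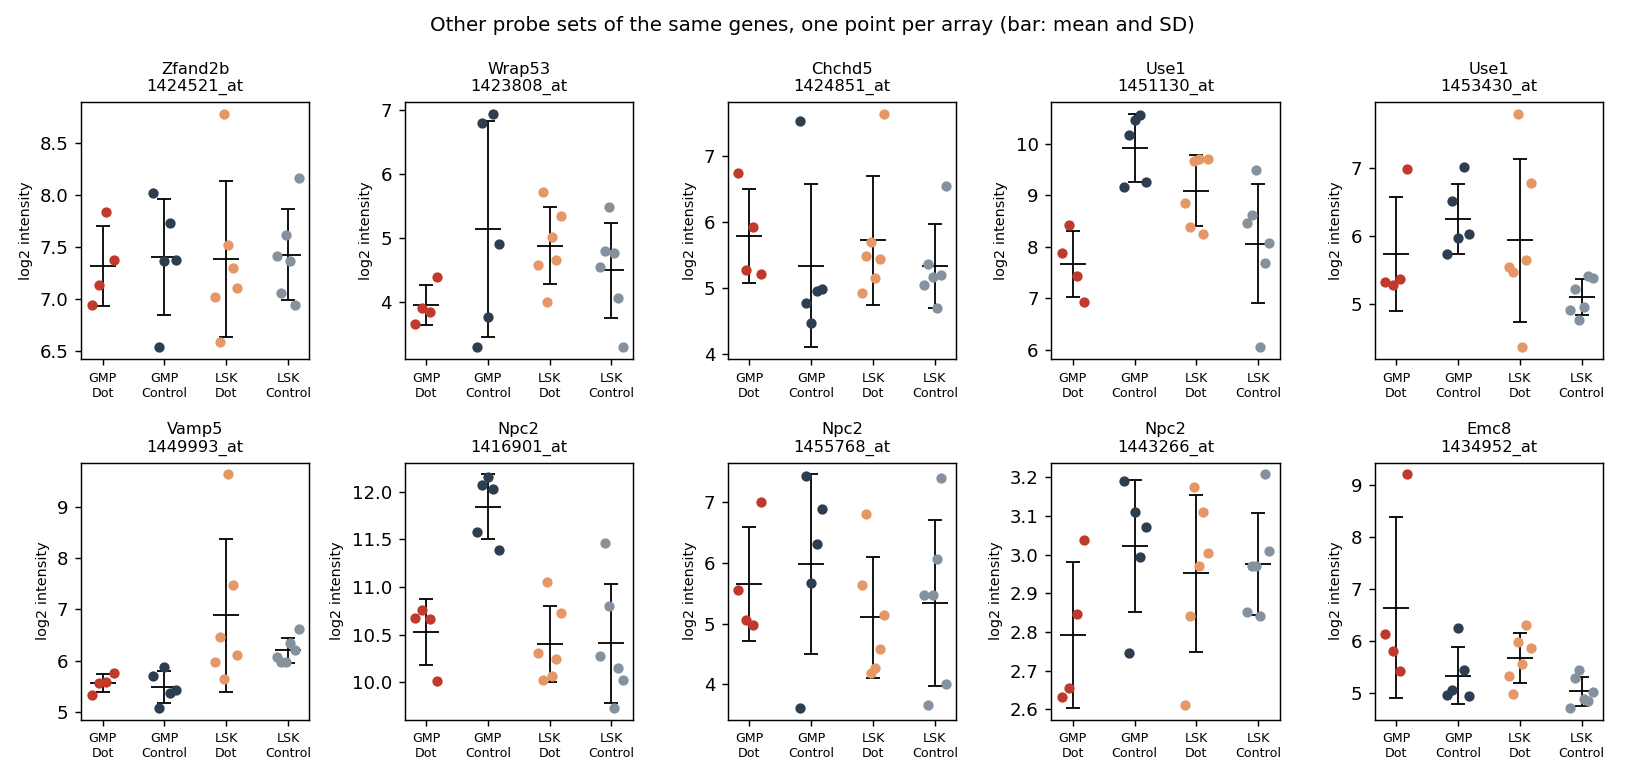
Log2 intensity (y axis) of the 10 other probe sets of the 9 genes on every array, by group (x axis), with bars for mean and SD (n = 4 GMP-Dot, 5 GMP-Control, 6 LSK-Dot, 6 LSK-Control). Use1 1451130_at and Npc2 1416901_at are the panels in which GMP-Dot lies wholly below GMP-Control.

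The 9 genes took different places in the order of the 4 groups. For Wrap53, Chchd5, Mogat2 and Npc2, control GMP lay above all other arrays and deleted GMP overlapped LSK. The GMP-Control minus LSK-Control differences of these 4 were 1.80 ± 0.27, 2.33 ± 0.28, 1.69 ± 0.20 and 1.11 ± 0.18 (SE) in that order, on the log2 scale. Their GMP-Dot means lay at percentiles 38.7, 67.4, 47.6 and 98.0 of all genes. For Wrap53 and Mogat2 deleted GMP thus lay below the median gene, and whether that signal exceeds background was not tested. For Eml2, Zfand2b and Vamp5, control GMP and both LSK groups overlapped in part and deleted GMP lay below them all, with GMP-Dot minus LSK-Dot at -2.47 ± 0.47, -1.86 ± 0.43 and -2.17 ± 0.27. Use1 was intermediate between these patterns, and Emc8 was the only one with every deleted LSK array above every control LSK array. These differences share arrays with the comparison that chose the genes and are given without a test.

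Genes of the same families, complexes or pathways as the 9 were read in both comparisons. Of 107 such genes measured in 9 lists, 0 passed the test in GMP and 0 in LSK (limma). In GMP, 10 had an unadjusted p under 0.05, 4 of them lower, and in LSK 11 had one, 4 of them lower. Over all genes the shares with such a p were 13.9% in GMP and 5.61% in LSK. The lists had 50 genes lower in GMP and a median of 0.02, against a median of -0.20 over all genes, of which 65.7% were lower. In LSK 51 of the 107 were lower and the median was 0.05, against 41.6% of all genes lower and a median of 0.06.

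Around the SNARE genes, 3 of 13 Golgi-to-ER traffic genes were lower in GMP, and Scfd2 (1.41 ± 0.57, SE) and the SNARE Sec22b (1.35 ± 0.62) had the largest values. Among 6 R-SNARE genes, Vamp7 had 2.43 ± 0.84 (limma adjusted p = 0.238) and Vamp2 had -1.33 ± 0.64. Of 9 other subunits of the ER membrane complex, 3 were lower, and Emc2 (1.04 ± 0.80) and Emc10 (-0.94 ± 0.52) differed most. Partner genes of Use1, Vamp5 and Emc8 thus had values of both signs. Of 12 ZFAND and p97 adaptor genes 1 was lower, with Zfand6 at 1.37 ± 0.67 and Ubxn4, a p97 adaptor, at 1.24 ± 0.71.

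Among 14 enzymes of triacylglycerol synthesis, 8 were lower in GMP, and Agpat1, which acylates lysophosphatidic acid, had -1.87 ± 0.61 (limma adjusted p = 0.214), further from 0 than Mogat2, while its relative Agpat4 had -1.11 ± 0.71. Of 13 lysosomal lipid genes 10 were lower, with Stard3, a sterol transfer protein, at -0.96 ± 0.44 and Scarb2, a lysosomal membrane protein, at 1.20 ± 0.77. For Wrap53, 7 of 17 telomerase, Cajal body and shelterin genes were lower, and the largest values were those of Tert, the catalytic subunit of telomerase, at 1.79 ± 1.40 and Dkc1, which binds its RNA, at 1.68 ± 0.80. Of 18 CHCH domain genes 11 were lower, led in size by Chchd6 (-1.47 ± 1.20) and Chchd3 (1.19 ± 0.90). The EML family had 3 of 5 lower, and its largest values were those of Eml5 (1.39 ± 0.91) and Eml4 (0.85 ± 0.55). Each of these values missed the threshold, which does not show that the genes were equal between genotypes.

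**Figure D4:**
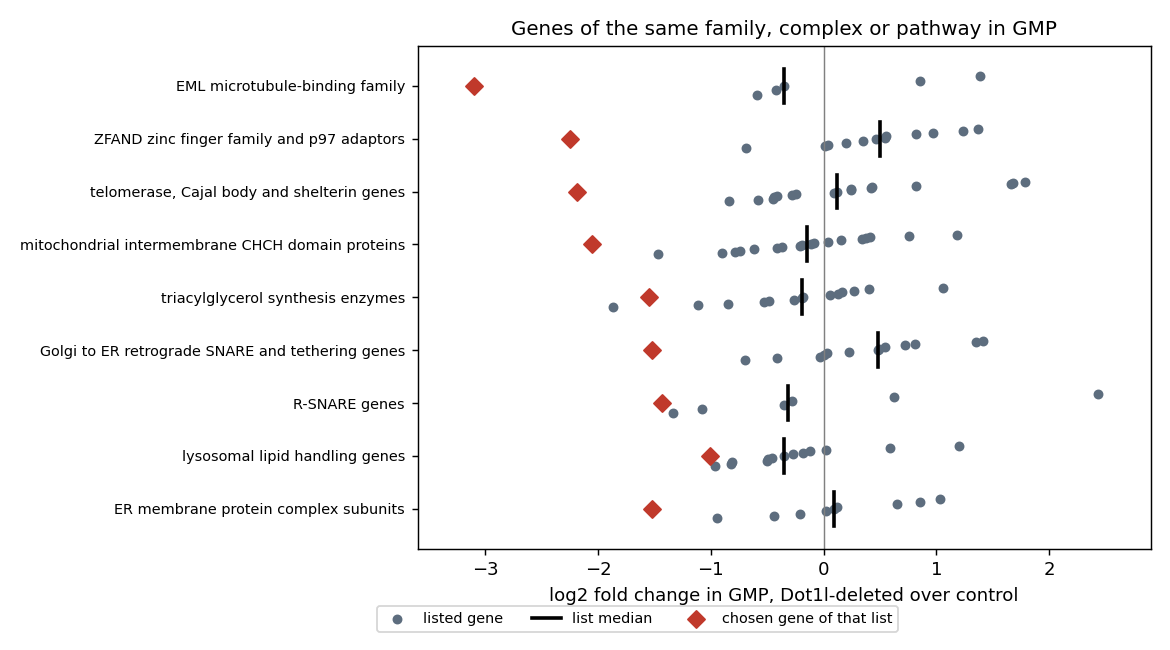
Log2 fold change in GMP (x axis), deleted over control, of 107 genes in 9 lists (y axis; points, with a bar at each list's median), with the chosen gene of each list as a diamond (4 GMP-Dot and 5 GMP-Control arrays). The chosen gene lies at the left of every list except that of Mogat2, where Agpat1 has -1.87. The chosen genes were picked on this same comparison, so nothing is read from their place.

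The nearest protein-coding genes on each side were read in the same fit. Of 18 neighbours 17 were measured, and 1 is not analysed here. None passed the test in GMP or in LSK (limma), with 4 under an unadjusted p of 0.05 in GMP and 1 in LSK. In GMP 13 of the 17 were lower, and their median was -0.34, against 65.7% of all genes lower and a median of -0.20, with 13.9% of all genes under the unadjusted p. Abcb6, beside Zfand2b, had -0.06 ± 0.28 (SE), and Retreg2, on the other side of Zfand2b, had -1.48 ± 0.36 (limma adjusted p = 0.105). Vamp8, beside Vamp5, had -1.08 ± 0.41, Isca2, beside Npc2, had -0.24 ± 0.44, and Polr1b, beside Chchd5, had 1.64 ± 0.52. Cox4i1, beside Emc8, had -0.55 ± 0.41 in GMP and 0.66 ± 0.35 in LSK, short of the threshold in both. In all, 8 of the 17 neighbours were lower in GMP and higher in LSK. Emc8 also overlaps another protein-coding gene model in the gene table, and whether its probe sets also read that model was not tested. These neighbours were named after their values were seen.

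The likeness of the profiles was described over all arrays. The Pearson correlation of each with the mean centred profile of all 9, over 21 arrays, was lowest for Vamp5 (0.487) and highest for Use1 (0.874). Among genes outside the 9, the closest to that profile were Maz (0.874), Nudt16l1 (0.851), Ptpn18 (0.848), Ssna1 (0.840) and Cd37 (0.836). Maz averaged 9.26 in GMP-Dot, 10.74 in GMP-Control, 10.01 in LSK-Dot and 9.57 in LSK-Control on the log2 scale. Each of the 9 is part of the mean profile and was chosen for low GMP-Dot values, which fixes a positive correlation for it, and the arrays share genotype, cell type and overall brightness, so these are descriptions.

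Most marker lists of other cell types had more members lower than higher in GMP-Dot, as did all genes (65.7%). The mean log2 level of 7 late neutrophil markers was 7.21 to 8.23 in GMP-Dot and 8.59 to 9.14 in GMP-Control, and all 7 had lower means in GMP-Dot. The 5 B cell markers averaged 5.13 to 5.59 in GMP-Dot and 5.73 to 6.73 in GMP-Control, with all 5 lower. The 7 eosinophil and mast cell markers averaged 5.17 to 5.83 in GMP-Dot and 5.57 to 6.97 in GMP-Control, with 5 lower, and Prg2 among them passed the test. The neutrophil and B cell ranges did not overlap between the GMP genotypes, and the eosinophil and mast cell ranges did, with Cpa3 of that list at 1.65. The ranges also overlapped for the megakaryocyte (4 of 5 lower), T and NK cell (4 of 5), stromal (5 of 7), monocyte (4 of 6) and erythroid (2 of 4) lists. The neutrophil list was also lower in LSK-Dot (6.20 to 8.32) than in LSK-Control (8.22 to 12.56) by all 7 means, though these ranges overlapped. The 9 genes had values of both signs in LSK. Of the 7 GMP markers, 1 had a lower mean in LSK-Dot and 6 had a lower mean in GMP-Dot, and 0 passed the test. No marker value is at 0 on an intensity scale, so absence cannot be read, and the part of these cells in the values of the 9 genes was not tested.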

How the data were processed

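The authors deposited 1 table of intensities for 45101 probe sets on 21 arrays, which came from RMA (version unstated) per the submitters' processing notes. The values are on a linear scale, as read from the values themselves. No source used here names a genome build. The log2 of each intensity was taken, without a pseudocount and without normalizing again. The platform annotation gave 1 symbol for 34958 probe sets, several for 932 and none for 9211. They gave 18194 genes, each by its probe set of highest mean log2. Entrez identifiers matched a gene table of GRCm38.p6 for 34754 probe sets, which changed 0 symbols. That table also gave neighbours, and promoters came from RefSeq.

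Groups came from the sample titles. limma 3.58.1 in R 4.3.3 fitted 4 group means over all arrays, moderated the variances and adjusted p-values over the 18194 genes by Benjamini-Hochberg (threshold 0.05), and the fit was tested on simulated data. The 9 genes, the lists and the tests were chosen with earlier results of these data known, and the 6 neighbours named, none of which passed, were picked after their values were seen. Named genes are the 9 with all their probe sets, the 5 most alike in profile, the 2 largest GMP values of each partner list, partner genes that pass, and the 3 other lower calls in GMP. Marker lists of other cell types were described by counts and ranges. Sort markers (Kit alone, 7.26 to 8.17 in GMP-Dot and 5.66 to 7.27 in GMP-Control) overlapped between the GMP genotypes. Kit lay at 5.00 to 9.96 in LSK-Dot and 8.57 to 9.93 in LSK-Control, so the lowest LSK-Dot value was below every GMP array. Alternatives were quantile normalization, median centring, an array brightness covariate, a filter on dim genes, other probe set choices, fits of 2 groups alone, trended and robust variances, array weights, the close pair averaged, a replicate block and each array left out. Gene-by-gene array weights were added after the data were seen, because the default estimate stopped before it converged.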

Additional observations from a re-analysis of the deposited data

Results flagged for a closer look

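Of 76 combinations of a probe set and a group, 8 held an array far from the rest of its group, against about 1 in 20 by chance. On main probe sets these were the LSK-Dot array K1272 for Zfand2b (9.06, next 7.74) and for Emc8 (11.46, next 9.45), and the LSK-Control array K1604 for Chchd5 (5.54, next 6.33). On Chchd5 1424851_at they were LSK-Dot K1422 (7.64, next 5.70), LSK-Control K1553 (6.55, next 5.37) and GMP-Control K1601 (7.53, next 4.99). The GMP-Dot array K1421 stood out on Use1 1453430_at (6.99, next 5.36) and on Npc2 1416901_at (10.01, next 10.67). All values are log2 intensities.

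The difference GMP effect minus LSK effect was negative for all 9 genes, from -3.49 to -1.08, and for 63.8% of all genes. Wrap53 and Emc8 drew attention because theirs were past the adjusted threshold across all genes by limma, with -2.62 ± 0.39 (SE) for Wrap53 and -3.49 ± 0.56 for Emc8. Over all genes, 6 were past it. These values come from the brightest probe sets, and on 1434952_at Emc8 was higher in deleted arrays in both GMP (1.31) and LSK (0.64). Eml2 had -3.12 ± 0.65, larger than that of Wrap53 and with a larger error. These differences use the GMP arrays that chose the genes, so they support nothing and no p is given.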

How the results depend on the processing

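The 12 other settings gave 107 values of the 9 genes in GMP, of which 97 stayed within the spread between arrays with the same sign. Of the 107, 9 moved beyond that spread and 1 reversed sign, all under the other probe set choices. Fits of 2 groups alone, trended and robust variances and the filter on dim genes cannot change a fold change in either cell type. Their agreement was thus fixed in advance. Leaving out each of the 9 GMP arrays gave 81 values, all within the spread between arrays, and their sign was fixed by groups that do not overlap. Without suffixed probe sets (_s_at, _x_at, _a_at), Vamp5 had 0.066 in place of -1.43, Zfand2b -0.083 in place of -2.25 and Wrap53 -1.19 in place of -2.18. Use1 (-2.26) and Npc2 (-1.32) were then larger in size. With the mean of all probe sets of a gene, Emc8 had -0.11, Vamp5 -0.68, Npc2 -0.72, Chchd5 -0.80 and Zfand2b -1.17, all smaller in size. The GMP median was -1.17 with the mean of all probe sets of a gene and -1.79 over genes brighter than the median gene, a filter that removes Mogat2. With the close GMP-Dot pair averaged it was -1.60, and 9 of all genes were called in place of 26. Leaving out LSK-Dot K1272 gave 390 calls, GMP-Dot K1359 125, GMP-Dot K1421 43, GMP-Dot K1190 10 and GMP-Dot K1272 9.

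In LSK, 97 of the 107 values under other settings, and 100 of the 108 with 1 of the 12 LSK arrays left out, kept sign and side of the threshold. Eml2 had -0.00089 with median centring, -0.34 with array weights, -0.32 with gene-by-gene weights and -0.32 to 0.32 with an array left out. Chchd5 had -0.012 and -0.0036 with these weights and -0.068 to 0.19 with an array left out. Npc2 had -0.033 with the mean of probe sets and -0.0046 without the suffixed ones. Array weights called 2 of the 9 genes in LSK (Mogat2 and Emc8), gene-by-gene weights 1 (Emc8), and fits with an array left out 0 to 1, the 1 being Emc8 without the LSK-Dot array K1359. Mogat2 had adjusted p-values of 0.0494 to 1 by limma over all its settings.

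Array weights called 5 partner genes in LSK (Naf1, Chchd4, Agpat5, Gosr2 and Vamp1) and 4 in GMP (Zfand2a, Vcp, Ubxn4 and Stard3), and gene-by-gene weights called 3 (Naf1, Chchd4 and Gosr2) and 19. With an array left out, 0 to 1 were called in GMP, the 1 being Ubxn4 without the LSK-Dot array K1272. The same weights called 663 and 446 of all genes in LSK and 3778 and 7152 in GMP, the default estimate without convergence, and the cause was not tested.

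The K numbers in the titles recur in both cell types, but of 9 pairs of equal number only 1 had deviations correlated above 0.1, and 0 correlated best with their own number, so they were not taken as pairs. With the K number as a random replicate block the GMP median was -1.56, 0 of the 9 genes were called in LSK and 16 of all genes in GMP.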
